A study of Homo sapiens with 6 samples.

Results

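The transcriptome described here is that of 786-O cells under the control condition, as recorded in the 3 libraries titled Control 1, Control 2 and Control 3. 786-O is an established human cell line from a clear cell renal cell carcinoma, labelled as kidney. The cells were grown in multi-well plates and transfected with what the labels call Control, whose composition they do not give. The value columns of Control 2 and Control 3 are headed "Vehicle", and the labels name no vehicle treatment. All 3 libraries were made from Trizol-extracted RNA with BGISEQ-500 protocols, and no other group is compared with them. Each library holds 1 FPKM value (fragments per kilobase of transcript scaled to the mapped fragments of the library) for the same 18126 gene symbols. The header of Control 1 gives no unit, and its values were taken as FPKM from their symbols and range. Genes at 1 FPKM or more in all 3 libraries were taken as expressed, which selected 11168 of the 18126 symbols (61.6%). Nothing in the labels says that the 3 libraries came from separate cultures, so the spread between them may be technical. FPKM carries no information on sequencing depth, which is unknown here, and counting intervals are therefore not given.

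Clear cell renal cell carcinoma is thought to arise from the proximal tubule, the part of the nephron that reabsorbs most of the filtered glucose, amino acids and phosphate. Its hallmark is loss of VHL, the ubiquitin ligase subunit that marks the hypoxia-inducible factors (HIF) for destruction when oxygen is present. Without it, HIF target genes for glucose uptake, angiogenesis and lipid storage stay active, and 786-O is a widely used line without functional VHL protein that carries HIF-2 alpha, the product of EPAS1. PAX8, PAX2 and LHX1 are transcription factors of the developing kidney tubule, and PAX8 is also used in pathology to recognise renal tumours.

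The values spanned from 0 to 5493.08 FPKM, the level of GAPDH in Control 2. Of the 18126 symbols, 1388 (7.66%) were listed at 0 in all 3 libraries and a further 2870 (15.8%) had a mean above 0 but under 0.1 FPKM. Means between 0.1 and 1 FPKM were found for 2485 symbols, between 1 and 10 for 5085, and between 10 and 100 for 5585. The 652 genes between 100 and 1000 FPKM held 34.3% of the summed FPKM, and the 61 genes at 1000 or more held 23.9%. The median over all symbols was 4.32 FPKM and over expressed genes 12.1 FPKM. Each library by itself had 11339 to 11419 symbols at 1 FPKM or more and 15806 to 15857 above 0. A set of 409 genes accounted for 50% of the summed mean FPKM. The 10 most abundant genes held 7.63 ± 0.619% (SD, n = 3 libraries) and the 100 most abundant held 30.6 ± 1.82%, which was 29.1% in Control 1, 32.6% in Control 2 and 30.1% in Control 3. The boundary of the expressed set ran through a dense stretch of values. The lowest library read exactly 1.00 FPKM in 16 genes inside it, among them ACVR2B, a receptor for activins, at 1.35, 1.00 and 1.16 FPKM. It read 0.99 in 13 genes outside it, among them NRARP, a regulator of Notch signalling, at 1.02, 0.99 and 1.19 FPKM.

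**Figure D1:**
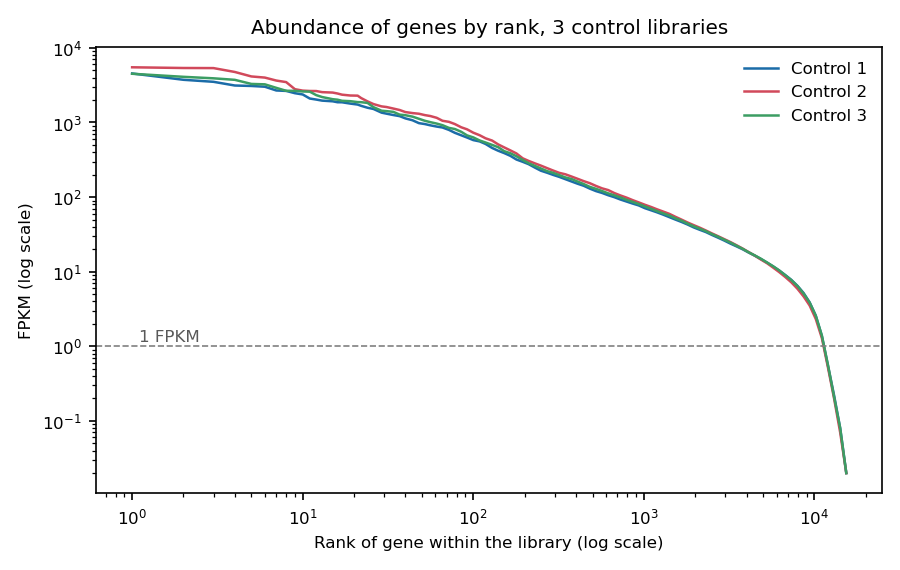
FPKM (vertical axis, log scale) of every gene above 0 against its rank within the library (horizontal axis, log scale), with 1 line per control library and a dashed line at 1 FPKM. The 3 lines nearly coincide below 100 FPKM, and Control 2 runs above the other libraries among the most abundant genes.

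Promoters are shown for 3 of the most abundant genes and for 3 marker genes listed at 0 in every library, because the classes of abundance differed in the CG content of their promoters. These are the 120 bases before the annotated start, in the direction of the gene, from RefSeq on GRCh38.p14, with each CG dinucleotide in capitals. GAPDH encodes a glycolytic enzyme, TMSB10 an actin-binding peptide and RPS18 a ribosomal protein. FOXI1 is a transcription factor of intercalated cells, LRP2 is megalin, the endocytic receptor of the proximal tubule, and AQP2 is the water channel of the collecting duct.
GAPDH (chr12:6535144-6535263, plus strand): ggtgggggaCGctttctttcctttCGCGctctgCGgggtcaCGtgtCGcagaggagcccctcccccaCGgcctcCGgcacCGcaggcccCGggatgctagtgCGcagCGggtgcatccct
TMSB10 (chr2:84905536-84905655, plus strand): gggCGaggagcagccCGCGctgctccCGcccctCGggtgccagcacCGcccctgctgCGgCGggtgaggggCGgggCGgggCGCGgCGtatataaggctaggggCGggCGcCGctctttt
RPS18 (chr6:33271955-33272074, plus strand): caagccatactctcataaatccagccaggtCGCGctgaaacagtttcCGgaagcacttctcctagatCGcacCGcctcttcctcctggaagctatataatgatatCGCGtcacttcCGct
FOXI1 (chr5:170105777-170105896, plus strand): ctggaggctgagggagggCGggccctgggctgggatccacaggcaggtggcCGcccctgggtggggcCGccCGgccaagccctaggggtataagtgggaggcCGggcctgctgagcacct
LRP2 (chr2:169362535-169362654, minus strand): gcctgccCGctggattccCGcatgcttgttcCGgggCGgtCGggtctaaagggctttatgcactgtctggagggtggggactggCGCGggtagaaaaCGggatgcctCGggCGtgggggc
AQP2 (chr12:49950617-49950736, plus strand): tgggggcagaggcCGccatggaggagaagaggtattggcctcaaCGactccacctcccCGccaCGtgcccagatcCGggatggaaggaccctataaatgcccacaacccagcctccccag

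Over the window from 250 bases before to 50 bases after the start, GAPDH held 28 CG, TMSB10 35 and RPS18 16, while FOXI1 held 16, LRP2 23 and AQP2 11. The 6 genes therefore overlapped. Over the 14185 symbols with a promoter in the RefSeq table (78.3% of all symbols), the median CG count of this 300-base window was 8 for genes at 0, 10 for those above 0 but under 0.1 FPKM and 13 for those from 0.1 to 1 FPKM. It was 26, 27, 26 and 26 in the 4 classes from 1 FPKM upwards, so the step lay at about 1 FPKM and no further rise followed above it. At least 10 CG were present in 46.2% of the promoters of genes at 0 and in 92.5% of those of genes between 10 and 100 FPKM, against 77.2% of all promoters. The letters TATAAA, searched on both strands of the 250 upstream bases and unable to overlap a CG, were present in 7.82% of all promoters. Their share was 17.4% among genes at 0, lowest at 4.14% among genes from 10 to 100 FPKM, and 12.8% (6 of 47 promoters) among genes at 1000 FPKM or more. Of the promoters shown, AQP2 held TATAAA. Each gene is shown at 1 annotated start, which need not be the start that its transcripts use most. Genes of 1 family share sequence, so these shares are descriptions and were not tested.

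The most abundant transcripts encoded cytoskeletal, ribosomal, glycolytic and secreted proteins. ACTB, cytoplasmic beta-actin, was at 4539.96, 5373.81 and 4498.69 FPKM in Control 1, 2 and 3 (mean 4804 ± 494, SD). GAPDH was at 3734.43, 5493.08 and 4093.34 FPKM (4440 ± 929) and TMSB10 at 3508.67, 5358.29 and 3908.79 FPKM (4259 ± 973). In all 3 genes Control 2 held the highest value, and their order by mean lay within the spread of the libraries. RPS2 (3872 ± 821 FPKM) and RPS18 (3467 ± 595 FPKM), both of the small ribosomal subunit, followed. VIM, the intermediate filament protein of mesenchymal cells, was at 3341 ± 285 FPKM. LGALS1, the secreted lectin galectin-1, reached 3199 ± 701 FPKM, and ENO1, the glycolytic enolase, 2911 ± 492 FPKM. TGFBI, an extracellular matrix protein induced by TGF-beta, was steadier at 2374.69, 2525.36 and 2588.75 FPKM. FN1, fibronectin, was at 2095.19, 1370.95 and 2021.09 FPKM, and here Control 2 was the lowest library. Of the 25 most abundant genes, 7 encoded ribosomal proteins, 6 belonged to the cytoskeleton list and 3 to the glycolysis list. Control 2 was the highest library in 22 of the 25 as deposited, against 42.8% of all expressed genes. Its summed FPKM was also the highest, at 496443, against 432777 in Control 1 and 456616 in Control 3. No rescaled count is given for these 25 genes. Other genes just below these were CD24, a surface glycoprotein, at 1643 ± 35.1 FPKM, and MTRNR2L2 at 1510 ± 235 FPKM, a gene nearly identical to mitochondrial 16S ribosomal RNA whose value is therefore uncertain.

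By function, the ribosome took the largest share of the classes listed. The counts of expressed members below are to be read against the 61.6% of all symbols that were expressed. All 77 cytosolic ribosomal protein genes in the list were expressed, from RPL37 at 59.5 ± 8.19 FPKM to RPS2, and together they held 13.3%, 15.7% and 14.1% of the summed FPKM in Control 1, 2 and 3 (14.4 ± 1.21%). They made up 21 of the 50 and 43 of the 100 most abundant genes. FPKM divides by a transcript length, and the lengths used are not given. The GENCODE transcript has 7686 bases for RPL37 and 985 for RPS2, but 1170 for RPL38, which was also low at 93.5 FPKM. How far the range within this family depends on the lengths used was not tested. The 31 cytoskeleton genes, all expressed, held 6.61 ± 0.266%. Glycolysis genes held 3.15 ± 0.253%, with 20 of 22 expressed: PKM, pyruvate kinase, was at 2112 ± 353 FPKM, LDHA, lactate dehydrogenase A, at 929 ± 29.6 and HK2, a hexokinase, at 13.2 ± 2.55. Extracellular matrix genes were expressed in 25 of 31 cases, and iron and redox genes in 23 of 25, with the ferritin subunits FTH1 at 2148 ± 350 FPKM and FTL at 1866 ± 421. S100 proteins and annexins, calcium-binding proteins, were expressed in 16 of 19 cases, led by S100A6 at 2416 ± 544 FPKM. All 12 MHC class I and antigen-processing genes were expressed, with B2M, the light chain of class I molecules, at 1244 ± 112 FPKM. Of 10 MHC class II genes 2 were expressed, CD74 (the invariant chain, 6.23 FPKM) and HLA-DMA (2.56 FPKM).

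The 24 proliferation genes were all expressed, against 61.6% of all symbols. Their median was 75.8 FPKM and their means ran from 34.9 to 211 FPKM, above the median of 12.1 FPKM over expressed genes. TYMS, thymidylate synthase, was at 211 ± 7.92 FPKM, CDC20, an activator of the anaphase-promoting complex, at 170 ± 27.2 and PCNA, the replication clamp, at 164 ± 2.48. MKI67, which encodes the Ki-67 antigen of cycling cells, was at 49.24, 36.04 and 34.97 FPKM. In bulk RNA a smaller number of cells with a transcript and less of it per cell cannot be told apart, for these genes and for the markers that follow.

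Transcription factors of the kidney tubule were present in part. Of 17 listed factors in the tables, 8 (47.1%) were expressed, against 61.6% of all symbols, and the list's median was 1.02 FPKM. PAX8 was at 66.52, 88.54 and 74.71 FPKM, highest in Control 2 and lowest in Control 1. SALL1 (16 FPKM), POU3F3 (11.5) and LHX1 (10.8), which act in nephron progenitors and early tubules, were at lower levels. PAX2 was at 6.18, 9.28 and 7.5 FPKM, below its paralogue PAX8 in every library. WT1, needed for nephron formation and kept on in podocytes, was at 5.45, 5.38 and 5.53 FPKM. GATA3, a factor of the nephric duct and collecting duct, lay on the boundary at 1.1, 0.98 and 0.97 FPKM. HNF4A, a factor of mature proximal tubule function, was near 0 at 0.0267 FPKM, and FOXI1 was at 0 in all 3 libraries.

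Among proximal tubule genes, 11 of 33 were expressed (33.3%, against 61.6% of all symbols), and 12 had a mean under 0.1 FPKM. Most of the expressed members encode membrane proteins, as do most members of the list. CDH6, a cadherin of the early proximal tubule, was at 180.14, 132.71 and 151.48 FPKM. PDZK1, a scaffold of the brush border, was at 131.79, 116.9 and 124.58 FPKM. HAVCR1, which encodes the injury marker KIM-1, was at 123.97, 49.63 and 85.18 FPKM, highest in Control 1 and lowest in Control 2. The brush border peptidases ANPEP (65.0 ± 8.24 FPKM) and GGT1 (41.5 ± 6.46 FPKM) were also expressed, as was MME at 6.28 FPKM. DAB2, an adaptor for endocytic receptors, was at 20.33, 16.06 and 18.99 FPKM. The bicarbonate cotransporter SLC4A4 was at 11.6 FPKM and the sodium-proton exchanger SLC9A3 at 4.89 FPKM. MIOX, the inositol-degrading oxygenase of the renal cortex, was at 1.78 FPKM. SLC5A2, the glucose cotransporter SGLT2, was at 0.81, 1.2 and 1.24 FPKM and so missed the threshold in Control 1. Other members were low or at 0. LRP2 was listed at 0 in all 3 libraries, and its partner CUBN was at 0.233 FPKM. The phosphate transporter SLC34A1 was at 0.0867 FPKM and the water channel AQP1 at 0.283. The gluconeogenic enzymes FBP1 and PCK1 were at 0.0133 and 0.01 FPKM, whereas PCK2, the mitochondrial isozyme, was at 30.9 FPKM. Of 11 genes of gluconeogenesis, the urea cycle and renal metabolism, 5 (45.5%, list median 0.147 FPKM) were expressed: PCK2, the urea cycle enzymes ASL (23.4 FPKM) and ASS1 (18.1), pyruvate carboxylase PC (9.6) and the arginase ARG2 (3.06).

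Some genes of other nephron segments were also expressed, in shares below the 61.6% of all symbols. In the list for the loop, distal tubule and collecting duct 2 of 18 (11.1%, list median 0.0233 FPKM) were expressed, CDH16, a kidney-specific cadherin, at 8.14 ± 1.78 FPKM, and SCNN1A, a subunit of the epithelial sodium channel, at 2.51 FPKM. SLC12A1, the cotransporter of the thick ascending limb, read 0.01 FPKM in each library, and AQP2 and AVPR2, the vasopressin receptor, were at 0. In the podocyte list 2 of 8 (25%, list median 0.0333 FPKM) were expressed: SYNPO, an actin-associated protein, at 142 ± 11 FPKM and PODXL, a surface sialomucin, at 2.92 FPKM. NPHS1, the nephrin of the slit diaphragm, was at 0.0233 FPKM, so the defining podocyte gene was near 0.

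The genes linked to clear cell carcinoma and to the hypoxia response formed the fuller list. Of 30 genes 26 (86.7%, against 61.6% of all symbols) were expressed, with a median of 34.4 FPKM. IGFBP3, a secreted binder of insulin-like growth factors, was at 1315.1, 1356.63 and 1388.29 FPKM. SLC2A1, the glucose transporter GLUT1, was at 263.48, 294.91 and 272.53 FPKM. VEGFA, the main angiogenic growth factor of this tumour, was at 223.36, 264.95 and 266.77 FPKM. The ratio of the highest to the lowest library was at most 1.19 in these 3 genes. CAV1, the caveolar coat protein, was at 342 ± 25.3 FPKM, and PLOD2, a collagen lysyl hydroxylase, at 219 ± 44.6. CD70, a ligand of the TNF family used as a target in this tumour, was at 207 ± 37.3 FPKM. CCND1, cyclin D1 and a HIF-2 target in these tumours, was at 104 ± 8.09 FPKM, and the lactate exporter SLC16A3 was at 196 ± 32.9 FPKM. PLIN2, the coat protein of lipid droplets, was at 82.69, 84.36 and 84.11 FPKM. The list was not uniform. CA9, the carbonic anhydrase that marks most clear cell tumours, was at 1.55, 2.01 and 2.25 FPKM, whereas its relative CA12 was at 42.7, 38.22 and 42.57 FPKM. ANGPTL4, a lipase inhibitor, was at 3.09 FPKM and LOX, a collagen cross-linking oxidase, at 1.74 FPKM. Below the threshold were NDUFA4L2 at 0.21, 0.33 and 0.26 FPKM, EPO at 0.427, FABP7 at 0.217 and PLIN1 at 0.18.

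Of 10 genes for oxygen sensing and HIF subunits 9 (90%, against 61.6% of all symbols) were expressed, with a list median of 16.4 FPKM. HIF1A was at 68.6, 66.73 and 78.23 FPKM and EPAS1 at 44.16, 33.3 and 39.59 FPKM, so the HIF1A transcript was higher in every library. These levels do not show whether either transcript is intact or how much HIF protein is made. ARNT, the partner subunit of HIF1A and EPAS1, was at 10.7 ± 1.89 FPKM. The transcript of VHL was at 22.11, 22.92 and 22.27 FPKM, and a transcript level says nothing of whether its protein works. The oxygen-dependent hydroxylases EGLN1 (17.4 FPKM) and EGLN3 (19.7 FPKM) were expressed, and HIF3A was at 0.217 FPKM. Of the 10 tumour suppressor and 9p21 genes 8 (80%, against 61.6% of all symbols) were expressed, with a list median of 10.8 FPKM. CDKN2A and CDKN2B, inhibitors of the cyclin D kinases, were at 0, 0 and 0.03 FPKM and at 0.02, 0 and 0 FPKM. MTAP, a methionine-salvage enzyme and their neighbour on chromosome 9, was at 11.99, 9.36 and 12.12 FPKM. The chromatin genes often mutated in this tumour, BAP1 (29.4 FPKM), PBRM1 (12.37, 7.32 and 10.38 FPKM) and SETD2 (10.4 FPKM), were expressed.

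Epithelial and mesenchymal genes were each expressed in part, in shares below the 61.6% of all symbols. Of 20 epithelial genes 9 were expressed (45.0%, list median 0.622 FPKM), led by the simple-epithelium keratins KRT8 (416 ± 72.5 FPKM), KRT18 (128 ± 22.9) and KRT19 (105 ± 25.2). The tight junction genes CLDN1 (37.1 FPKM) and TJP1 (23.0 FPKM) were expressed, and EPCAM, an epithelial adhesion molecule, was at 3.34 FPKM. CDH1, the E-cadherin of adherens junctions, was at 0.22, 0.11 and 0.09 FPKM, and the epithelial regulators ESRP1 and GRHL2 were at 0. Of 22 mesenchymal genes 11 were expressed (50%, list median 1.2 FPKM), with VIM and FN1 the highest. CDH2, N-cadherin, was at 95.66, 81.44 and 86.42 FPKM, and N-cadherin is also a normal cadherin of the proximal tubule. SPARC, a matrix glycoprotein, was at 462 ± 19.7 FPKM, and the transcription factors SNAI1, SNAI2, ZEB1 and ZEB2 were at 23.3, 14.2, 6.34 and 4.47 FPKM. Lower members of the list were ACTA2, smooth muscle actin, at 9.48 FPKM, LUM, the proteoglycan lumican, at 2.01 and COL1A1, a chain of type I collagen, at 1.21. The other chain, COL1A2, was at 0.0167 FPKM, and DCN, the proteoglycan decorin, and TWIST1, a transcription factor, were at 0.

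Markers of cell types that a culture of 1 line should lack were mostly under the threshold, whereas 61.6% of all symbols were expressed. The median of each list below was at most 0.278 FPKM, against 4.32 FPKM over all symbols. None of 10 endothelial, 5 B cell, 5 erythroid or 8 muscle genes was expressed, with CDH5, the endothelial cadherin, at 0 and VWF at 0.00667 FPKM. Of 12 T and NK cell genes 1 was expressed, IL7R at 2.73 FPKM, and PTPRC, the pan-leukocyte CD45, was at 0.42, 0.15 and 0.31 FPKM. Of 8 myeloid genes 2 were expressed, CD68, a lysosomal protein made by many cell types, at 31.7 FPKM, and CSF1R at 1.81 FPKM. Single members of other lists stood high while the defining genes were low. SERPINA1, a protease inhibitor made mainly by liver, was at 181.82, 252.65 and 214.13 FPKM, and ALB, albumin, was at 0.0433 FPKM, with 1 of 9 hepatocyte genes expressed. NEFL, the light neurofilament chain, was at 75, 77.4 and 75.48 FPKM and SNAP25, a synaptic fusion protein, at 12.8 ± 0.843 FPKM, with 2 of 8 neuronal genes expressed and RBFOX3, the neuronal antigen NeuN, at 0.15 FPKM. POU5F1, the pluripotency factor OCT4, read 26.0 ± 4.34 FPKM with SOX2 at 0.19 and NANOG at 0.387 FPKM. POU5F1 has near-identical pseudogene copies that can share reads, so its value is uncertain. Of 13 germ cell and cancer-testis genes 3 were expressed, PRAME at 15.5 ± 1.4 FPKM, MAGEA3 at 13.8 and MAGEA6 at 1.49, and the last pair are near-identical to each other. Of 6 squamous keratinocyte genes KRT10 was expressed, at 11.5 FPKM, and of 9 genes of other epithelial organs 1 was expressed.

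**Figure D2:**
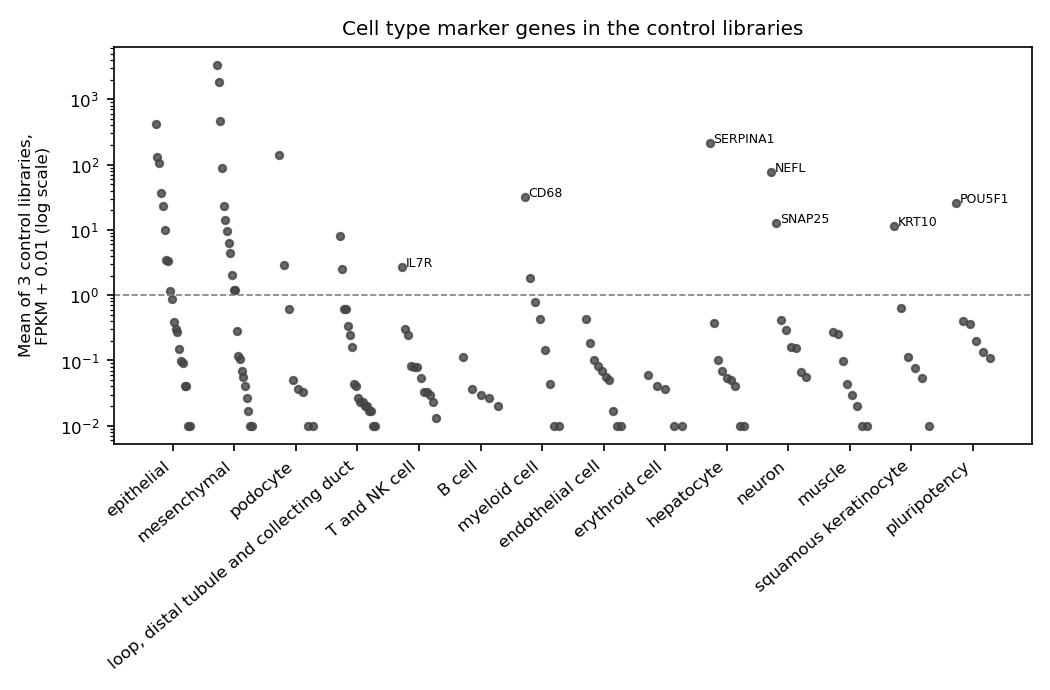
Mean FPKM of the 3 control libraries plus 0.01 (vertical axis, log scale) for each gene of 14 marker lists, with 1 point per gene and a dashed line at 1 FPKM. Epithelial and mesenchymal lists span the whole range, while lists of other cell types lie mostly under the line apart from named genes such as SERPINA1, NEFL, CD68 and POU5F1.

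The 3 libraries differed from each other by modest amounts, and Control 2 stood furthest from Control 1. The median coefficient of variation over expressed genes was 12.5% (interquartile range 7.51 to 18.1%) and the median ratio of the highest to the lowest library was 1.27. A ratio of 1.5 or more was found in 1855 of the 11168 expressed genes (16.6%). By level, this share was 22.0% of expressed genes with means from 1 to 10 FPKM, 12.6% from 10 to 100, 10.9% from 100 to 1000 and 16.4% (10 of 61) at 1000 or more. Control 2 and Control 1 differed by 1.5-fold or more in 1732 genes (15.5%), of which 640 (5.73%) were higher and 1092 (9.78%) lower in Control 2. Control 3 differed by that much from Control 1 in 100 genes (0.895%) and from Control 2 in 583 genes (5.22%). Without Control 2, therefore, 100 genes of the remaining pair passed the ratio, and without Control 1, 583. Pearson correlations of log2 FPKM across the 11168 genes, which are not independent replicates, were 0.9768 for Control 1 and 2, 0.9933 for Control 1 and 3 and 0.9876 for Control 2 and 3. Control 3 held the middle value in 65.9% of expressed genes and in 88.3% of those that differed 1.5-fold or more. With 1 library on each side these are differences between libraries, and no test applies. Control 1, on 1 side of the largest difference, is the library whose header states no unit.

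**Figure D3:**
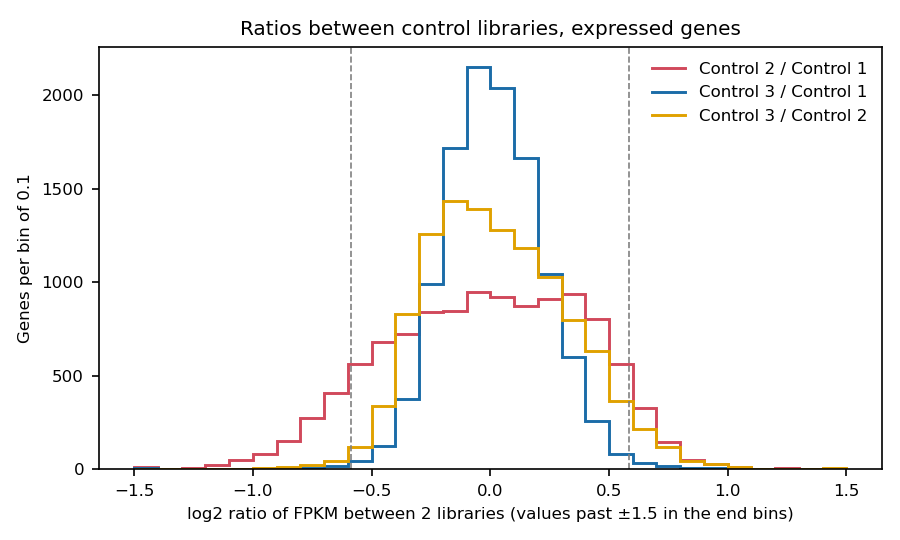
Number of expressed genes (vertical axis) in bins of the log2 ratio of FPKM between 2 control libraries (horizontal axis), with 1 line per pair and dashed lines at a ratio of 1.5 either way. The distribution of Control 2 against Control 1 is the broadest, with 1732 genes past the dashed lines, and that of Control 3 against Control 1 the narrowest, with 100.

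The genes that varied most among the 6286 protein-coding genes with a mean of 10 FPKM or more included surface and adhesion proteins. HAVCR1 had the third highest ratio, 2.498. ITGAV, the alpha subunit of vitronectin-binding integrins, was at 131.61, 60.43 and 121.75 FPKM, and SLC44A1, a choline transporter, at 33.03, 14.52 and 27.68 FPKM. RELN, the secreted protein reelin, was at 15.65, 7.26 and 12.55 FPKM and PPIG, a nuclear cyclophilin, at 18.39, 8.55 and 17.18 FPKM. HNRNPH2, an RNA-binding protein, was at 24.49, 12.45 and 29.86 FPKM. Control 2 was the lowest library in 7 of the 10 genes with the widest ratios, these among them. The other 3, SMIM11B (3.01, 13.85 and 13.55 FPKM), NPIPB3 (8.12, 20.56 and 11.41 FPKM) and UPK3BL1 (13.56, 27.8 and 12.56 FPKM), were highest in Control 2 and have near-identical copies in the genome, so their values are uncertain. The narrowest ratios included PPT1, a lysosomal thioesterase, at 63.55, 63.61 and 63.54 FPKM, and VAV2, a guanine nucleotide exchange factor, at 19.22, 19.26 and 19.23. HOXA10, a patterning factor, was at 31.42, 31.56 and 31.62 FPKM, and SQOR, a mitochondrial sulfide oxidase, at 60.21, 60.18 and 60.45. FAM32A, EIF2A, RTN4IP1, CLDND1 and CCZ1B were also among the 10 narrowest, with ratios of at most 1.01, and CCZ1B also has a near-identical copy. All these ratios are of values as deposited, and rescaling the libraries to the same total would change them.

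Reference genes differed in steadiness. None of the 11 housekeeping genes reached a ratio of 1.5, and their coefficients of variation ran from 1.12% for C1orf43 to 11.3% for PSMB4, a proteasome subunit. Of 14 genes often used as references in quantitative PCR, 1 reached it, TFRC, the transferrin receptor, at 59.88, 37.22 and 52.58 FPKM. As deposited, HPRT1, a purine salvage enzyme, was the steadiest of them with a coefficient of variation of 3.0%, and GAPDH had 20.9%. Rescaling the libraries to the same total would change the coefficients in both lists and the order of genes by them. Control 2 held the highest value in 12 of the 14 as deposited, against 42.8% of all expressed genes. This number was 12 after scaling to 1 median, 9 with the length and GC trends described next removed, 6 after quantile normalization and 5 after rescaling to the same total.

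The direction of the deviation of a library went with the length and the GC content of the transcript. Over the 11126 expressed genes with a GENCODE transcript (99.6%), split into 5 groups by length, the median ratio of Control 2 to Control 1 was 1.27 in the shortest group (median 1383 bases). It was then 1.12, 0.989 and 0.862, and 0.744 in the longest (median 7383 bases). In the shortest group Control 2 was at least 1.5-fold higher in 17.5% of genes and lower in 0.988%, and in the longest it was higher in 0.36% and lower in 32.2%. By GC content the ratio ran the other way, from 0.764 in the group with a median of 38.7% GC to 1.34 in the group with 61.9%. Control 3 lay between, with median deviations from the gene's mean of 0.00 to 0.04 on the log2 scale across the length groups. Across genes, the deviation of Control 1 had a Pearson correlation of 0.6 with log10 length and of -0.65 with GC content, that of Control 2 one of -0.56 and 0.68, and that of Control 3 one of 0.13 and -0.28. Length and GC content are themselves related, yet both moved with the ratio. Among short transcripts with low GC content the median ratio was 1.0 (729 genes) and among short ones with high GC content 1.38 (1753 genes). Among long transcripts it was 0.698 with low GC content (1758 genes) and 1.1 with high (699 genes). The cause of these trends was not tested.

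**Figure D4:**
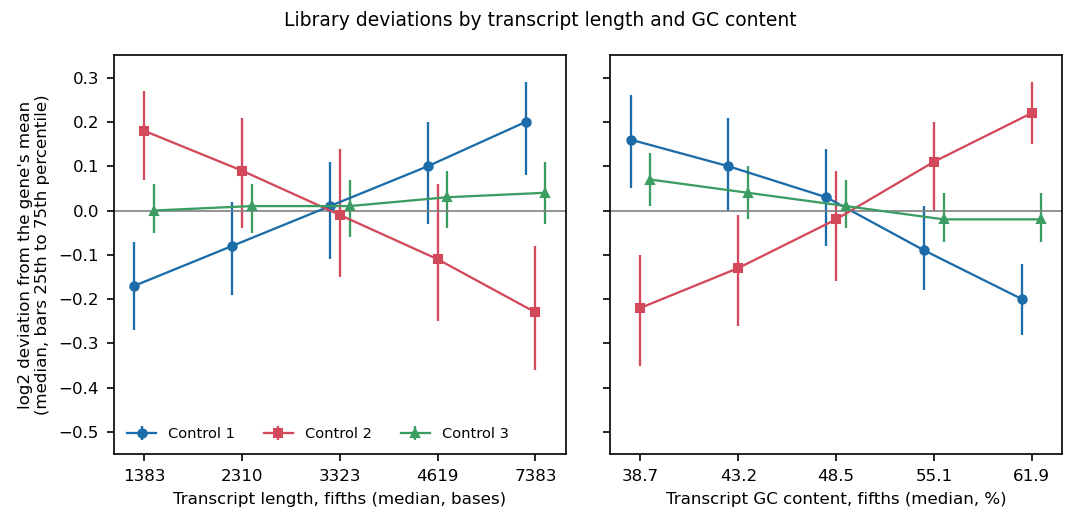
Median log2 deviation of each control library from the gene's mean (vertical axis, bars from the 25th to the 75th percentile) in 5 groups of expressed genes by transcript length (left, bases) and by GC content (right, percent). Control 1 runs from -0.17 to 0.20 with length and Control 2 from 0.18 to -0.23, in opposite directions, and with GC content the directions are exchanged.

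Gene groups also leaned to 1 library. All 77 ribosomal protein genes, most of which have short transcripts, were highest in Control 2 as deposited, against 42.8% of all expressed genes. Of the 77, 11 were 1.5-fold or more above Control 1, against 5.73% of all expressed genes. The number highest in Control 2 was 77 after scaling to 1 median, 67 after rescaling to the same total, 49 after quantile normalization and 57 once the trends with length and GC content were removed. For the 31 cytoskeleton genes it was 26 as deposited, 27 after scaling to 1 median, 16 after rescaling to the same total, 8 after quantile normalization and 18 without the trends, so the direction of that group depended on the scaling. With the trends removed, the ratio of the highest to the lowest library went from 1.47 to 1.13 in GAPDH, from 1.53 to 1.3 in FN1 and from 1.69 to 1.4 in ITGB1, an integrin subunit. ITGAV came to 1.55 and SLC44A1 to 1.49, while HAVCR1 remained at 2.6 and HNRNPH2 at 2.22. Over all expressed genes with a transcript, 432 reached a ratio of 1.5 without the trends.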

How the data were processed

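RNA-seq of 3 control libraries was analysed; the other libraries of the series were not used. The authors deposited 1 table per library with FPKM per gene symbol, rounded to 2 decimals; per the file headers, Control 2 and 3 are in FPKM, and Control 1, whose header gives no unit, was taken as FPKM from its symbols and range. Per the submitters' processing notes the genome build was GRCh38. How reads were aligned, counted, annotated and treated for strand is not given in the sources used here, so near-identical, overlapping and antisense genes can share reads. Of 1954 ratios among 2110 low genes, 19.2% fell within 0.1 of a whole number against 20% for evenly spread values. Steps of single reads could thus not be found, and depth is unknown.

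Values were used as deposited. An expressed gene has 1 FPKM or more in all 3 libraries. Means, SDs, coefficients of variation and ratios of the highest to the lowest library were computed with pandas 2.3.3 in Python 3.11.15, with no pseudocount, and no p-value is given because there is 1 group. Shares are of summed FPKM, not of reads. Gene lists are described by their counts and, for most, their medians, to be read against all symbols (61.6% expressed, median 4.32 FPKM); some genes are in more than 1 list. Symbols were matched to GENCODE release 29 (17879 of 18126) for transcript length and GC content, and to RefSeq promoters. Trends were removed by fitting cubic splines with 4 knots to the log2 deviations (scikit-learn 1.9.0). The removal was tested on simulated data with a straight trend with log10 length in Control 2. A trend with GC content was not simulated.

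Genes named are the 25 highest means; per list the expressed members, up to 6 in lists over 12, and defining members at 0 or under 0.1 FPKM; the 10 widest and 10 narrowest ratios among protein-coding genes with a mean of 10 FPKM or more; genes at the threshold; and reference genes. Some genes the rule picks are not reported here, and others named were chosen after their values were seen. The members and lists were chosen with earlier results of these data known. Alternatives were other thresholds, TPM rescaling, scaling to 1 median, quantile normalization, a filter, a pseudocount, removal of trends and leaving out each library.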

Additional observations from a re-analysis of the deposited data

How the results depend on the processing

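The number of expressed genes stayed within 1.5 times of 11168 under the alternatives run for it (other thresholds, TPM rescaling, 1 median and leaving out a library), from 8168 at 5 FPKM to 11889 after TPM rescaling, and was 11194 to 11294 without 1 library. TPM rescaling raised every value, because the summed FPKM of each library (432777 to 496443) is below the total of TPM values. The same cut of 1 was therefore a lower one, and a threshold of 0.5 FPKM gave 11830 genes. The share of the 100 most abundant genes was 29.6 to 31.4% without 1 library. The count of genes with a ratio of 1.5 or more was the least stable. Against 1855, it was 782 among genes with a mean of 10 FPKM or more, 4488 among all genes above 0, 1146 with 1 FPKM added and 100 to 1732 without 1 library. It was 432 with length and GC trends removed, an alternative added after seeing the data, while the 3 other scalings gave 1627 to 2599. The cause was not tested, except for what holds by construction. A filter changes how many genes enter, a pseudocount shrinks ratios of low genes, and leaving out a library cannot raise a gene's ratio. Without the trends, Control 2 against Control 1 gave 307 genes instead of 1732, and Control 3 against Control 2 gave 201 instead of 583. TPM rescaling gave 1050 for Control 3 against Control 2. Control 3 against Control 1 ranged from 68 to 103 against 100. No paired analysis was possible because the libraries form 1 group and no groups were compared. Without depth, values near 1 FPKM and values of 0 have no counting error, and a listed 0 does not show absence.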

Other observations

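Further gene families were described after their values had been seen, so they carry no test. HOX genes, which encode positional identity along the body axis, were widely present, with 31 of 37 (83.8%) expressed against 61.6% of all symbols. HOXA9 was at 41.16, 42.28 and 42.85 FPKM, HOXA10 at 31.5 ± 0.103 and HOXD10 at 13.5 ± 1.12. HOXD11, which with HOXA11 is needed for growth of the kidney, was at 8.01 ± 0.129 FPKM and HOXA11 at 4.28 ± 0.455. Means of 4 members were under 0.1 FPKM, with HOXB13 at 0.0167, HOXC13 at 0.00667, HOXD12 at 0.0467 and HOXD13 at 0.00667, while HOXA13 was at 1.57, 1.16 and 1.67 FPKM.

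Of 46 nuclear receptors, ligand-regulated transcription factors, 22 were expressed (47.8%, against 61.6% of all symbols) and 13 had a mean under 0.1 FPKM, as had 23.5% of all symbols. The list's median was 1.26 FPKM. PPARD, a fatty acid sensor, was at 26.49, 36.38 and 29.58 FPKM, and NR2F2 and NR3C1, the glucocorticoid receptor, were at 30.6 and 26.7 FPKM. PPARG was at 11.4 ± 1.75 FPKM. NR3C2, the mineralocorticoid receptor of the distal nephron, was at 0.0367 FPKM, and VDR at 0.75, 0.49 and 0.3 FPKM. Of 37 keratins 6 (16.2%, list median 0.0433 FPKM) were expressed, KRT80 at 29.5 ± 2.26 FPKM among them, and KRT5, of basal epithelia, was at 0.0433 FPKM. Of 184 olfactory receptor genes 1 was expressed and 70 were listed at 0. Of 476 ZNF genes 354 (74.4%, against 61.6% of all symbols) were expressed, with a list median of 2.65 FPKM. Of these, 197 were lowest in Control 2 as deposited, against 44.0% of all expressed genes. The number was 256 after TPM rescaling, 184 after scaling to 1 median, 155 after quantile normalization and 127 with the length and GC trends removed.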
